A study of Mus musculus with 24 samples.

Results

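Chromatin accessibility near the Ceacam genes was described in aged and young small intestinal epithelium of the mouse. The 10 genes considered were Ceacam1, Ceacam2, Ceacam10, Ceacam12, Ceacam13, Ceacam14, Ceacam16, Ceacam18, Ceacam19 and Ceacam20, all on chromosome 7. A peak was taken as a member when the deposited annotation named one of these genes and placed the peak within 50000 bp of its transcription start site (TSS). Of 150646 consensus peaks 43 met this rule, and they belonged to 8 of the 10 genes. Ceacam1 had 10 peaks, Ceacam2 had 7, Ceacam12, Ceacam16 and Ceacam18 had 5 each, Ceacam10 and Ceacam20 had 4 each, and Ceacam19 had 3. No peak was annotated to Ceacam13 or Ceacam14. The peaks farthest out lay 39008 and 38685 bp from the Ceacam2 start site, and no peak of these genes lay beyond 50000 bp.

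The family was selected with the age contrast of these same libraries in view, because the promoter peaks of Ceacam10 and Ceacam12 had been called higher in aged. The differences between the ages given for those genes are therefore a description of what selected them, and no test is read from them.

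ATAC-seq uses the transposase Tn5, which inserts sequencing adapters where chromatin is open, so that counts in a peak measure accessibility. The aged and the young libraries came from C57BL/6JRj mice, and in both ages the cells were digested from the small intestine and sorted as EpCam+ and CD45-, a gate that keeps epithelium and leaves out most leukocytes. Each age had 3 libraries, numbered 1, 2 and 4. The labels say only aged and young. The series' design text gives 20 to 22 months for aged and 2 to 3 months for young mice, in sentences on RNA-seq of epithelium and on organoids, whereas the labels of these libraries name freshly isolated cells. Whether each library is its own mouse is not stated, so p-values reflect the spread between libraries alone, which may be technical. Counts in peaks totalled 16900796 to 23935291 in the aged libraries and 6149680 to 22819924 in the young ones, with young 4 the shallowest.

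CEACAM proteins are members of the carcinoembryonic antigen family, cell surface or secreted glycoproteins built from immunoglobulin-like domains. Many bind to themselves or to each other between neighbouring cells, and several reach the apical face of the gut epithelium, where they meet microbes. Ceacam1 carries an inhibitory tyrosine motif in its cytoplasmic tail and is the receptor of mouse hepatitis virus. Ceacam20 carries an activating tyrosine motif and sits on the microvilli of intestinal epithelial cells. Other members are known from other organs, among them Ceacam16 from the tectorial membrane of the inner ear, Ceacam10 as a secreted protein of the seminal vesicle, and Ceacam12, Ceacam13 and Ceacam14 from the trophoblast of the placenta.

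Ceacam genes differed in whether a peak covered their start site. Lack of a peak does not show that a start site was closed. Peaks classed as promoter peaks by the annotation were present at Ceacam1, Ceacam10, Ceacam12, Ceacam18 and Ceacam20, and in each of these the 300-base RefSeq promoter lay wholly inside a peak. The promoters of Ceacam2, Ceacam13 and Ceacam19 had no base in a peak, and no promoter sequence was matched for Ceacam14 and Ceacam16. The promoter sequences of the 5 genes with a peak at the start site are given from RefSeq in the build GRCm38.p6. Each runs from 250 bases before to 50 bases after the start site, in the direction of the gene. They show which starts resemble each other. In the first pair, capitals mark the longest run of bases that both share. In the other 3, capitals mark matches to the motifs searched.
Ceacam10: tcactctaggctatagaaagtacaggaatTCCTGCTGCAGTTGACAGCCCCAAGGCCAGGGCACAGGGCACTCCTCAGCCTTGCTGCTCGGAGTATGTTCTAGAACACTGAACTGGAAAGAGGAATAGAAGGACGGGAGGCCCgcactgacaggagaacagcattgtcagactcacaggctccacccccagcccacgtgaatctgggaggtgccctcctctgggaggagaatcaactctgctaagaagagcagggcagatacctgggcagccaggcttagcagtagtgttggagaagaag
Ceacam1: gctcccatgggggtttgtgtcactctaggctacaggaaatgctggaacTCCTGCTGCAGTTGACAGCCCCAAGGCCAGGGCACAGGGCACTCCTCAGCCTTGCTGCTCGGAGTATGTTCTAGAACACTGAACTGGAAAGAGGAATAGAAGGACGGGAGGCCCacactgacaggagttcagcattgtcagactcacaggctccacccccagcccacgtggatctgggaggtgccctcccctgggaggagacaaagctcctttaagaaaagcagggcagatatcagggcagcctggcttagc
Ceacam12: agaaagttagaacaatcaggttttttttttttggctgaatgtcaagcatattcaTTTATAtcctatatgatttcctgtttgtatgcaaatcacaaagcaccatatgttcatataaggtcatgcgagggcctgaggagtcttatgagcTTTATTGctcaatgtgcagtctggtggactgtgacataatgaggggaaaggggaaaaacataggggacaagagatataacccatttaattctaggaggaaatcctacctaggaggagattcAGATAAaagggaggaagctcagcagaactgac
Ceacam18: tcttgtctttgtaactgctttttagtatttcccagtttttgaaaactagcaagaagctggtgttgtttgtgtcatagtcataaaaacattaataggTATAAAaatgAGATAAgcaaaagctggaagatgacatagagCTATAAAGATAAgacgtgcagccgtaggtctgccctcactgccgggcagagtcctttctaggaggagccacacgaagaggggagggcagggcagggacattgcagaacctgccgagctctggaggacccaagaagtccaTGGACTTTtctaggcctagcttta
Ceacam20: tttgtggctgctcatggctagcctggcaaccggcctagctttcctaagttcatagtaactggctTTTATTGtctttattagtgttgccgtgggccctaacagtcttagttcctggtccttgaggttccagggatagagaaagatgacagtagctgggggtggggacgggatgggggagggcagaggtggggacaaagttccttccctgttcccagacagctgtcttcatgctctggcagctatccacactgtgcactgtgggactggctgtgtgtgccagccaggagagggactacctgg
The Ceacam10 sequence is chr7:24776954-24777253 on the plus strand and the Ceacam1 sequence is chr7:25477576-25477875 on the minus strand. Those of Ceacam12 at chr7:18065679-18065978, Ceacam18 at chr7:43634489-43634788 and Ceacam20 at chr7:19965162-19965461 are on the plus strand.

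The promoters of Ceacam10 and Ceacam1 shared an unbroken run of 114 bases, and 81.2% of aligned positions were identical over the 300 bases. Among all 28 pairs of the 8 matched promoters, the other 27 had 43.1% to 51.1% identity and no shared run above 21 bases. The windows are fixed at each start site, so promoters alike at shifted positions can still have a low identity. The run of 21 bases lay at bases 18 to 38 of the Ceacam1 window and at 148 to 168 of the Ceacam2 window. Ceacam12 and Ceacam13, whose genes lie next to each other among the members, shared a run of 19 bases at 43.6% identity. This run was shifted as well, at bases 160 to 178 of the Ceacam12 window and 68 to 86 of the Ceacam13 window. The low identity of such a pair does not show that the promoters are unlike. How reads that map to more than one place were treated is not given in the sources used here, so counts over the stretch shared by Ceacam10 and Ceacam1 are uncertain in how they were divided between the 2 genes. Of 27025 promoters in the RefSeq table the median GC content was 52.7% and the median number of CpG dinucleotides was 7. The 8 Ceacam promoters had 39.3% to 57.3% GC and 1 to 5 CpG, so each had fewer CpG dinucleotides than the median promoter. Ceacam12 had the lowest GC content of the 8 and Ceacam1 the highest.

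**Figure D1:**
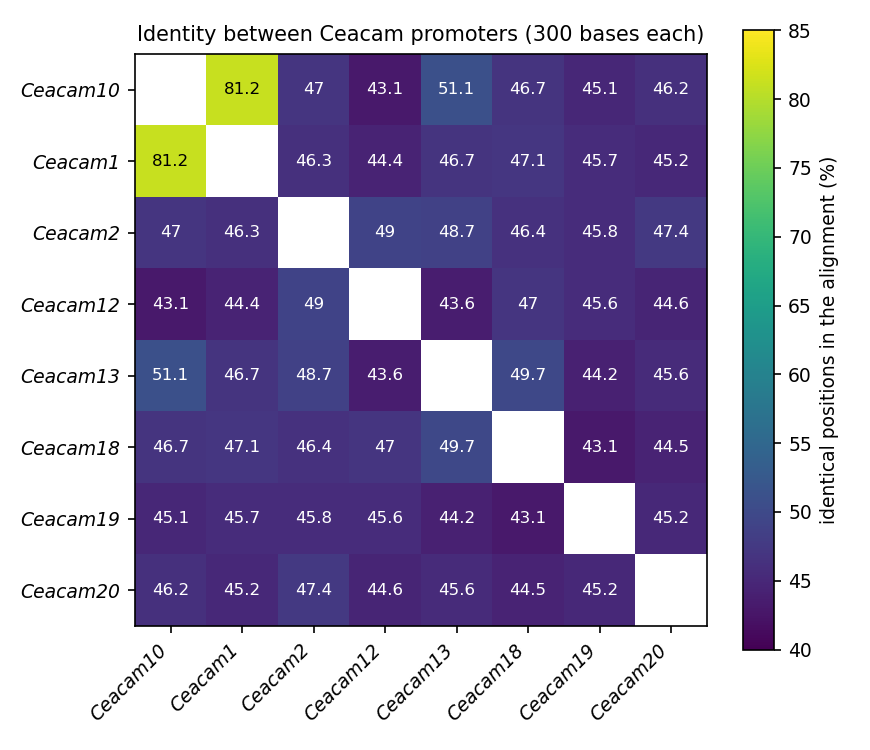
Percent of identical positions in pairwise alignments of the 300-base RefSeq promoters of 8 Ceacam genes, with genes on both axes and identity as colour and number. In these windows, fixed at each start site, Ceacam10 and Ceacam1 have 81.2%, while every other pair lies between 43.1% and 51.1%. Promoters alike at shifted positions can still have a low identity.

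Motif matches were searched on both strands as plain letters. The E-box CACGTG occurred in the promoters of Ceacam1 and Ceacam10, with its first base 38 and 57 bases upstream of the start site, in both outside the shared run, and in 7.24% of all promoters. The GATA motif AGATAA was found at Ceacam2, Ceacam12, Ceacam13 and Ceacam18 and in 11.4% of all promoters. A CDX-type motif, TTTATNG, occurred at Ceacam12, Ceacam13, Ceacam18 and Ceacam20 and in 11.3% of all promoters. Ceacam12 and Ceacam18 held TATAAA, present in 14.2% of all promoters. Ceacam18 held it with the first base 154 and 112 bases upstream of the start site. Only the match at 112 bases overlapped the CDX-type match. Ceacam18 held the HNF4-type motif AAAGTCCA, present in 1.25% of promoters, and Ceacam19 the interferon-type motif GAAANNGAA, present in 8.57%. Neither the GC box GGGCGG nor the AP-1 motif TGANTCA was found in these 8 windows, against 35.9% and 7.93% of all promoters. A match is only a run of letters, and nothing on the binding of a factor follows from it.

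Mean accessibility was higher in aged than in young epithelium at every tested peak of Ceacam10 and of Ceacam12. At the tested peaks of the other 6 genes the log2 fold changes, aged over young, lay between -0.33 and 0.47, and none was called. Of the 43 peaks 38 passed the filter on low counts, and 5 of them rose in aged by edgeR's quasi-likelihood test at an adjusted p below 0.05, 4 at Ceacam12 and 1 at Ceacam10. Over all 129588 tested peaks 1.07% were called higher and 0.528% lower. No Ceacam peak was called lower, by edgeR, DESeq2 or limma-voom. At an unadjusted p below 0.05 edgeR and DESeq2 each had 8 higher and 0 lower, and limma-voom 9 and 1. Over all tested peaks these tools had 5.38%, 3.34% and 5.36% higher and 3.45%, 1.96% and 3.56% lower at that level. The aged values lay above the young ones without overlap at 7 of the 38 peaks and below them at 1, against 7.32% and 6.54% of all tested peaks. Since these shares include the contrast that selected the family, nothing is read from them. The median log2 fold change was 0.06 over the 38 peaks, and 21 were above 0. Over all tested peaks the median was -0.004, with 49.3% above 0. The 5 untested peaks, 4 at Ceacam1 and 1 at Ceacam2, held 2 to 15 counts per library and were 78 to 108 bp wide.

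**Figure D2:**
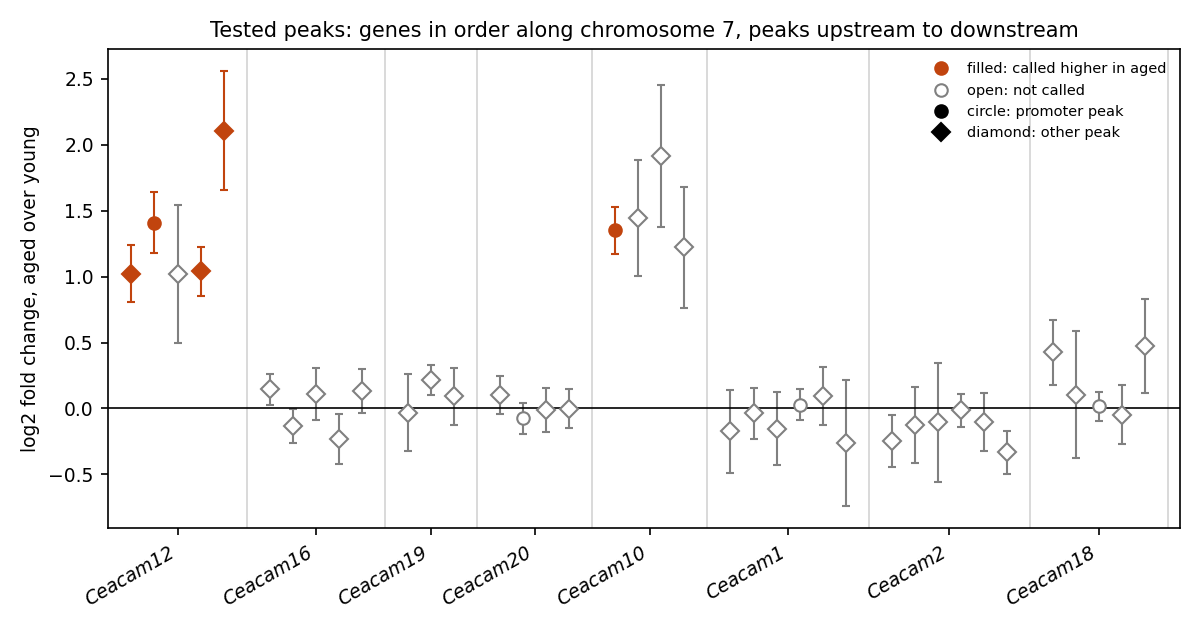
Log2 fold change of normalised counts, aged over young, with its standard error (SE) as bars, for the 38 tested peaks grouped by gene in the order of the genes on chromosome 7. Filled points were called higher in aged, and circles are peaks the annotation classes as promoter peaks. The 9 peaks of Ceacam12 and Ceacam10 lie between 1.02 and 2.11, and the 29 peaks of the other genes lie between -0.33 and 0.47. The promoter peaks of Ceacam12 and Ceacam10 had selected the family in this contrast, so nothing is read from the gap.

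Ceacam10, whose promoter peak had helped to select the family, held its peaks in a short stretch from 181 bp upstream to 2185 bp downstream of the start site. Its promoter peak, chr7:24776699-24777347, had 12.9, 15.6 and 16.6 CPM (counts normalised to TMM-scaled library sizes) in aged 1, 2 and 4, against 5.13, 4.90 and 9.40 CPM in young 1, 2 and 4. All 3 aged libraries were above all 3 young ones, and young 4 was the highest young library. The log2 fold change was 1.35 (SE 0.18 and adjusted p = 9.71e-06 in edgeR's fit of all peaks). In bulk data such as these, more cells with an open site and more opening per cell cannot be told apart. The other 3 peaks were small and lay in the first and the second intron. The peak 298 bp downstream had 11, 27 and 21 counts in aged 1, 2 and 4, against 7, 10 and 1 counts in young 1, 2 and 4. At 776 bp downstream there were 12, 23 and 11 counts in the aged libraries, against 5, 5 and 0 counts in the young ones, where 0 counts in young 4 allow up to 0.478 CPM at a limit of 3 counts. The peak at 2185 bp had 9, 22 and 21 counts in aged, against 8, 6 and 4 in young. The log2 fold changes of these 3 peaks were 1.44 (SE 0.44), 1.92 (SE 0.54) and 1.22 (SE 0.46), and none was called, with adjusted p-values of 0.116, 0.0644 and 0.292. With the replicate number as a block, the peak at 776 bp was called as well.

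Ceacam12 was open at a lower level than Ceacam10 at its promoter and over a wider stretch, with 5 peaks spread over 26472 bp. At its promoter peak, chr7:18065631-18066141, the normalised counts were 4.87, 5.60 and 3.86 CPM in aged 1, 2 and 4, against 1.42, 1.88 and 2.55 CPM in young 1, 2 and 4. The aged libraries were all above the young ones, with a log2 fold change of 1.41 (SE 0.23 and adjusted p = 0.000281). The peak in the last intron, chr7:18073916-18074369, had the most counts of the gene. It had 9.86, 11.2 and 8.12 CPM in the aged libraries, against 3.48, 6.04 and 4.78 CPM in the young ones, with no overlap and a log2 fold change of 1.04 (SE 0.19 and adjusted p = 0.000748). Upstream, the intergenic peak chr7:18057596-18058009 had 5.49, 6.39 and 4.49 CPM in aged, against 2.2, 3.52 and 2.07 CPM in young. Its log2 fold change was 1.02 (SE 0.22 and adjusted p = 0.00559), and without young 1 it was 0.85 and no longer called (adjusted p = 0.059). Beyond the end of the gene, the peak chr7:18083892-18084067 had 1.11, 0.919 and 1.53 CPM in aged, against 0.229, 0.347 and 0.159 CPM in young. These are 18, 22 and 27 counts in aged, against 5, 7 and 1 counts in young. Its log2 fold change of 2.11 (SE 0.45 and adjusted p = 0.00643) was the largest of the family, and the call was lost without aged 4 (log2 fold change 1.89, adjusted p = 0.0852) and with DESeq2 (adjusted p = 0.0511). This peak was not tested with a mean of at least 10 counts or after thinning to the depth of young 4, where it failed the filter. The fifth peak, in the second intron, had 14, 10 and 13 counts in aged, against 7, 4 and 4 in young, and was not called at a log2 fold change of 1.02 (SE 0.52 and adjusted p = 0.606).

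Summed over peaks within 1000 bp of the start site, the promoters of Ceacam10 and Ceacam12 had similar ratios. Promoter sums are scaled to all promoter counts, so these CPM are not on the scale of single peaks. The Ceacam10 sum was 40.5, 52.9 and 56.9 promoter CPM in aged 1, 2 and 4, against 15.4, 17.0 and 30.4 in young 1, 2 and 4, which is 2.39-fold for the means and 1.42 on the log2 scale (SE 0.18 and adjusted p = 1.21e-05). For Ceacam12 it was 13.8, 16.8 and 11.9 promoter CPM in aged, against 3.86, 5.67 and 8.11 in young, which is 2.41-fold for the means and 1.43 on the log2 scale (SE 0.26 and adjusted p = 0.00109). Of 13869 tested promoters 0.772% were called higher and 0.973% lower, and of the 5 Ceacam promoters 2 were called higher and 0 lower. By edgeR, DESeq2 and limma-voom alike, 2 of the 5 were higher and 0 lower at an unadjusted p below 0.05. Over all promoters these tools had 4.6%, 3.17% and 4.92% higher and 4.32%, 2.96% and 4.48% lower at that level. Nothing is read from these counts. Without young 1 the log2 fold change was 1.24 for Ceacam10 and 1.15 for Ceacam12, the lowest of the 6 fits that each leave out a library. Without young 4 it was 1.63 and 1.59, the highest. After thinning all libraries to the depth of young 4, the Ceacam12 promoter was no longer called, at 1.04 (adjusted p = 0.21), while the Ceacam10 promoter was.

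**Figure D3:**
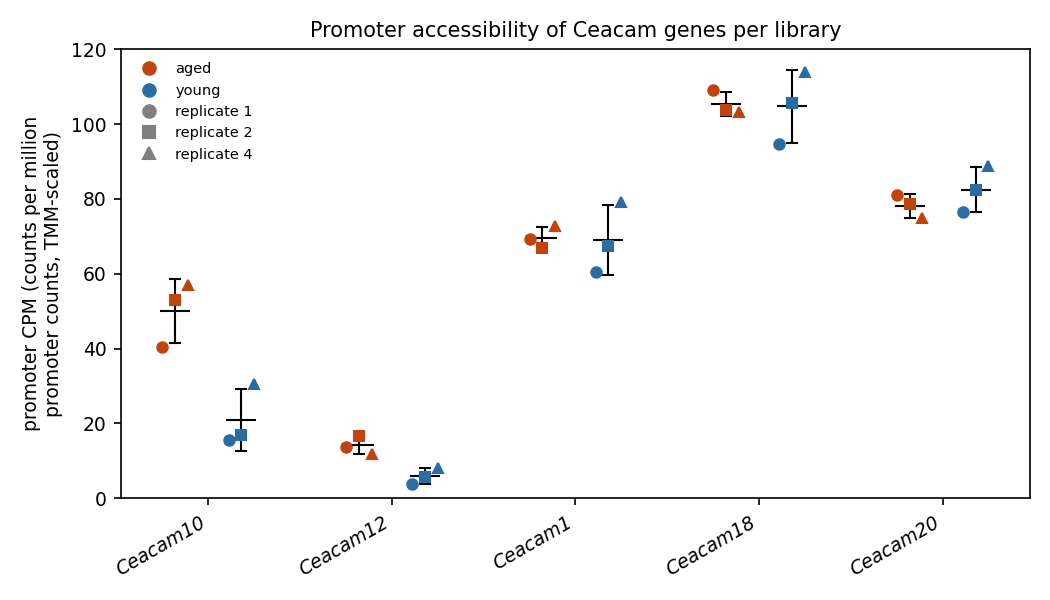
Promoter CPM (normalised counts summed within 1000 bp of the start site and scaled to all promoter counts) for the 5 Ceacam genes with a promoter peak. Points are libraries, aged left of young for each gene, and black lines are the mean and standard deviation of 3 libraries. The aged libraries lie above the young ones at Ceacam10 and Ceacam12, and the ages overlap at Ceacam1, Ceacam18 and Ceacam20.

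Ceacam1, the inhibitory receptor of the family, had a promoter that overlapped between the ages although it shares most of its sequence with that of Ceacam10. Its promoter peak, chr7:25477336-25477958, had 24.5, 22.3 and 23.6 CPM in aged 1, 2 and 4, against 22.2, 22.4 and 24.8 CPM in young 1, 2 and 4. The log2 fold change was 0.03 (SE 0.12), and the ages overlapped. The next by mean CPM lay 4311 bp upstream, with 4.07, 3.72 and 3.80 CPM in aged, against 4.12, 4.11 and 3.34 CPM in young, and a log2 fold change of -0.04 (SE 0.19). An intron peak 11717 bp downstream had 3.51, 3.01 and 4.37 CPM in aged, against 4.30, 2.92 and 2.39 CPM in young, and a log2 fold change of 0.09 (SE 0.22). The ages overlapped at both. The remaining 3 tested peaks of Ceacam1 had log2 fold changes of -0.27 to -0.15.

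At Ceacam20, the receptor of the microvilli, the promoter peak chr7:19965048-19965551 had 28.7, 26.2 and 24.2 CPM in the aged libraries, against 28.1, 27.3 and 27.9 CPM in the young ones. The ages overlapped, with a log2 fold change of -0.07 (SE 0.12). Its 3 further peaks, at 2855 bp upstream and 1436 and 6295 bp downstream of the start site, had log2 fold changes of 0.10, -0.01 and -0.002.

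Ceacam18, of which little is known, had the widest promoter peak of the family, chr7:43633951-43634982, 1032 bp long. It had 38.6, 34.7 and 33.5 CPM in aged 1, 2 and 4, against 34.8, 35.1 and 35.8 CPM in young 1, 2 and 4, and a log2 fold change of 0.02 (SE 0.11). Both the smallest and the largest of these 6 values were thus aged libraries. Its intron peak 8005 bp downstream had 24, 20 and 23 counts in aged, against 16, 16 and 8 counts in young, and a log2 fold change of 0.47 (SE 0.36), the highest outside Ceacam10 and Ceacam12. The upstream peak at 8545 bp had 5.79, 3.64 and 4.03 CPM in aged, against 4.76, 2.33 and 2.2 CPM in young, and overlapped.

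Ceacam16 and Ceacam19 lie next to each other, and neither had a peak within 1000 bp of its start site. The 5 peaks of Ceacam16 are intergenic in the deposited annotation, 3083 to 6848 bp upstream of its start site, but lie within the longer gene that RefSeq places at chr7:19852097-19871426. The largest, chr7:19867866-19868429, had 51.2, 40.1 and 45.8 CPM in aged 1, 2 and 4, against 39.5, 43.9 and 40.1 CPM in young 1, 2 and 4. Only aged 1 and aged 4 exceeded every young library there, and the log2 fold change was 0.14 (SE 0.11). The nearest peak to the start site, at 3083 bp, had 7.03, 7.94 and 8.75 CPM in aged, against 8.24, 7.18 and 5.41 CPM in young. Ceacam19, also little studied, had its main peak in the last exon, chr7:19876753-19877540, with 57.7, 51.9 and 56.6 CPM in aged, against 52.3, 44.0 and 46.3 CPM in young. Aged 2 lay just below young 1 and the log2 fold change was 0.22 (SE 0.11 and adjusted p = 0.606). The peak 2169 bp upstream of Ceacam19 had 22, 47 and 40 counts in aged, against 33, 35 and 20 in young, at a log2 fold change of -0.03 (SE 0.29).

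Ceacam2, a close relative of Ceacam1 known for a part in feeding and energy balance, had 7 peaks and none at its start site. Its start site in the deposited annotation lies 2911 bp from the RefSeq one. The main peak, chr7:25530625-25531316 in an intron, had 19.1, 15.9 and 18.1 CPM in aged 1, 2 and 4, against 17.7, 16.7 and 19.7 CPM in young 1, 2 and 4. The 2 ages overlapped, with a log2 fold change of -0.01 (SE 0.13). All 6 tested peaks of Ceacam2 had log2 fold changes below 0, from -0.33 to -0.01, and none was called. The lowest, 26931 bp downstream of the start site, had 6.96, 9.74 and 5.96 CPM in aged, against 8.79, 10.1 and 10.4 CPM in young. The peak nearest the start site, 4617 bp upstream, held 6, 22 and 8 counts in aged, against 15, 10 and 6 in young, at -0.11 (SE 0.45). Its farthest peak, 39008 bp upstream, was the only Ceacam peak with every aged library below every young one, at 3.82, 3.886 and 3.35 CPM in aged, against 3.890, 4.36 and 5.41 CPM in young.

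Outside Ceacam10 and Ceacam12, 29 Ceacam peaks were tested and 0 were called, by edgeR, DESeq2 and limma-voom. At an unadjusted p below 0.05, edgeR and DESeq2 had 0 of the 29 and limma-voom had 1 higher and 1 lower. Over all tested peaks edgeR called 1.07% higher and 0.528% lower, and had 5.38% and 3.45% at the unadjusted level. Of the 29, 12 had a log2 fold change above 0, and the median was -0.01. Values that miss the threshold do not show that the ages were alike, and with SE of 0.11 to 0.48 only larger differences could be called.

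Levels of the genes were compared per kb of peak, over all peaks within 50000 bp and both ages. The order was Ceacam19 at 40.9 CPM per kb, Ceacam16 at 39.4, Ceacam20 at 35.9, Ceacam18 at 20.7, Ceacam1 at 16.5, Ceacam2 at 15.5, Ceacam10 at 13.4 and Ceacam12 at 9.55, each the mean of 6 libraries. Ceacam19 exceeded Ceacam16 in 5 of 6 libraries, and Ceacam16, Ceacam20 and Ceacam18 each exceeded the next gene in 6 of 6. Ceacam1 was above Ceacam2 in 4 of 6, Ceacam2 above Ceacam10 in 3 of 6, and Ceacam10 above Ceacam12 in 5 of 6, so the order at the lower end differed between libraries. In aged 1, 2 and 4 Ceacam10 was at 15.9, 19.9 and 21.0 CPM per kb, against 6.47, 6.36 and 10.9 in young 1, 2 and 4. Ceacam10 was thus above Ceacam2 in each aged library and below it in each young one. Ceacam12 had 13.3, 14.8 and 11.3 CPM per kb in aged, against 4.60, 7.21 and 6.13 in young. At promoters alone, the order of levels was Ceacam20, Ceacam1, Ceacam18, Ceacam10 and Ceacam12, at 53.7, 37.4, 34.3, 14.5 and 6.58 CPM per kb, and it held in 6 of 6 libraries at each step. The promoter of Ceacam20 stood at percentile 82.4 of all tested promoters by CPM per kb, and that of Ceacam12 at percentile 13.8. Both orders depend on division by peak width. Without it, promoter means were 35.4 CPM at Ceacam18, 27.1 at Ceacam20, 23.3 at Ceacam1, 11.9 at Ceacam10 and 3.36 at Ceacam12. Ceacam20 was then at percentile 63.7 and Ceacam12 at percentile 21.4. Within 50000 bp, undivided means put Ceacam16 (74.2 CPM) above Ceacam19 (57.1), Ceacam2 (36.3) above Ceacam1 (36.1) and Ceacam12 (15.9) above Ceacam10 (12.5).

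**Figure D4:**
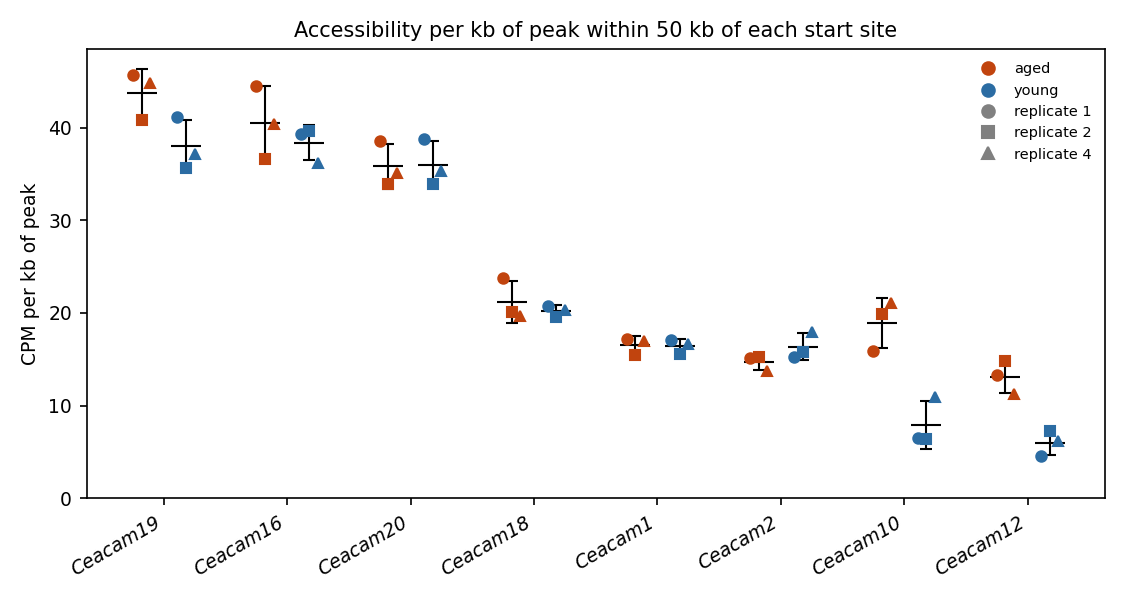
Accessibility in CPM per kb of peak, summed over all peaks within 50000 bp of each start site, for the 8 Ceacam genes with peaks, from the highest to the lowest mean. Points are libraries, aged left of young, and black lines are the mean and standard deviation of 3 libraries. Ceacam10 and Ceacam12 hold the lowest young values, at 4.60 to 10.9 CPM per kb.

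Summed within 50000 bp and tested over 27199 genes, 2 Ceacam genes were called higher in aged and 0 lower, where 1.06% of all genes were called higher and 0.776% lower. With edgeR, DESeq2 and limma-voom alike, 3 of the 8 sums were higher and 0 lower at an unadjusted p below 0.05. Over all sums these tools had 5.19%, 4.14% and 5.38% higher and 3.73%, 2.88% and 3.82% lower at that level. Nothing is read from these counts. The sums are scaled to all counts in such windows. Ceacam10 had 15.9, 20.3 and 21.8 CPM in aged, against 6.41, 6.53 and 11.2 CPM in young (log2 fold change 1.38, SE 0.18 and adjusted p = 4.83e-05). Ceacam12 had 23.8, 26.9 and 20.7 CPM in aged, against 8.11, 13.2 and 11.2 CPM in young (log2 fold change 1.15, SE 0.16 and adjusted p = 8.56e-05). Ceacam19 also had all aged libraries above the young ones, at 68.4, 62.3 and 69.2 CPM in aged, against 60.9, 54.8 and 57.3 CPM in young. Its log2 fold change of 0.21 (SE 0.08) was not called (adjusted p = 0.344), but it was called with the replicate number as a block (0.20, adjusted p = 0.0464). Within 10000 bp, where its main peak is left out, it was -0.03. The other 5 genes lay between -0.13 at Ceacam2 and 0.07 at Ceacam16.

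The peaks around Ceacam12 and Ceacam10 were listed whatever gene they were annotated to. Ceacam12 stood alone, with the nearest other peak 202 kb to its left and 97.0 kb to its right and the nearest tested ones 924 and 127 kb away. The Ceacam13 gene, chr7:18009889-18019220, lies inside the empty stretch to the left. Among the 6 nearest peaks on each side, all 4 tested on the left and all 3 on the right had log2 fold changes above 0, from 0.01 to 0.88, and none was called by edgeR, DESeq2 or limma-voom. At an unadjusted p below 0.05 edgeR had 5.38% of all tested peaks higher and 3.45% lower. At that level each tool had 1 of these 7, on the right. It was a peak of Mill1, an MHC class I-like gene, with 2.10, 2.05 and 2.78 CPM in aged, against 1.28, 1.19 and 1.27 CPM in young (log2 fold change 0.88, SE 0.28 and adjusted p = 0.126).

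Left of Ceacam10, beginning 13.3 kb away, all 5 tested peaks of Cd177 and Gm4763 had log2 fold changes above 0, from 0.17 to 0.75. Cd177 encodes a surface glycoprotein known from neutrophils. To the right, beginning 38.2 kb away, 1 of 4 tested peaks was above 0 and the range was -0.22 to 0.02. None of these 9 was called by edgeR or DESeq2, and at an unadjusted p below 0.05 either tool had 3 on the left and limma-voom 4, with 0 on the right. Over all tested peaks edgeR had 5.38% higher and 3.45% lower at that level, DESeq2 3.34% and 1.96%, and limma-voom 5.36% and 3.56%. The peak upstream of the Cd177 start site, chr7:24762492-24763403, had 19.0, 21.4 and 20.0 CPM in aged, against 10.8, 13.7 and 20.1 CPM in young. Young 4 reached the aged level there, and the log2 fold change was 0.52 (SE 0.15 and adjusted p = 0.0892). This peak was called by limma-voom (adjusted p = 0.0396), and with the replicate number as a block it and a Gm4763 peak were called (adjusted p = 0.00052 and 0.0413). The log2 fold changes within Ceacam10, 1.22 to 1.92, all exceeded those of the 9 neighbours. Since Ceacam10 was selected for its rise in this contrast and the neighbours were not, nothing is read from this difference.

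**Figure D5:**
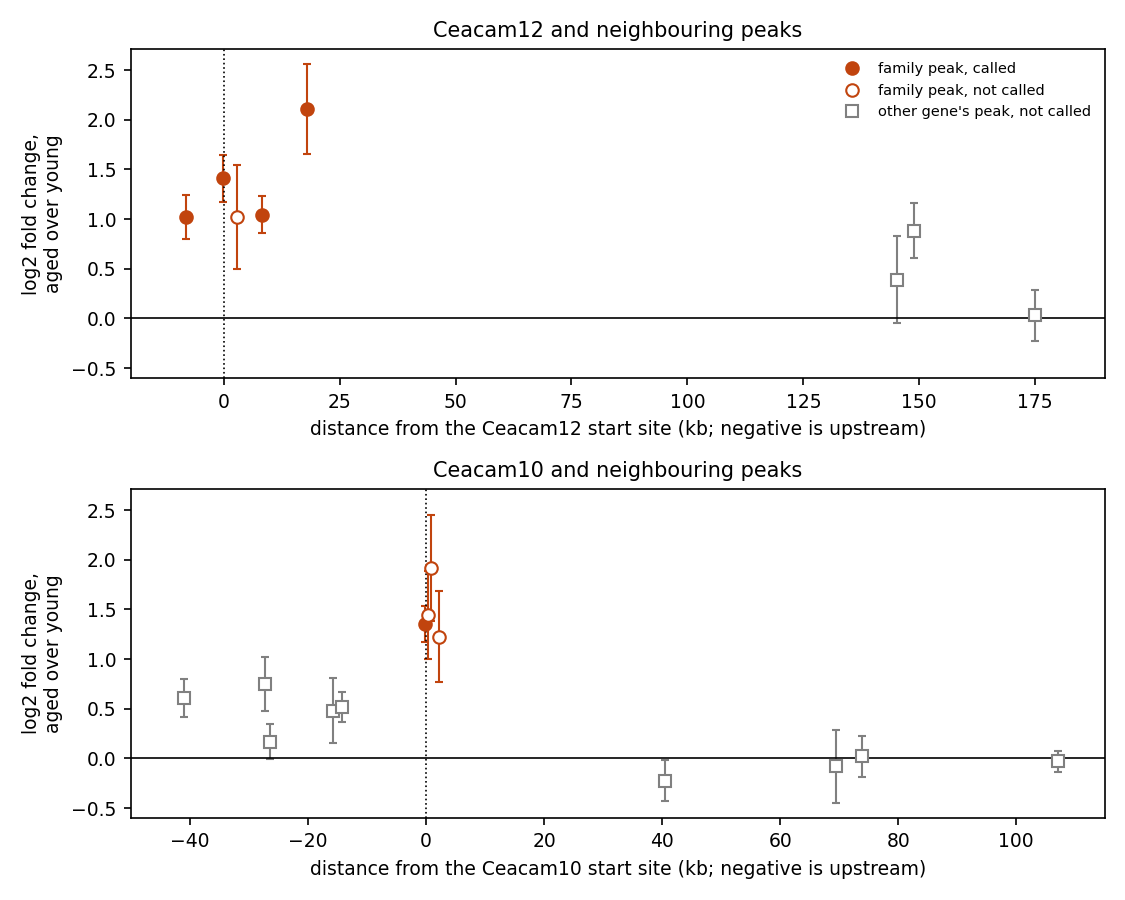
Log2 fold change, aged over young, with its SE as bars, against the distance in kb from the start site of Ceacam12 (upper panel) and Ceacam10 (lower panel). Filled points were called higher in aged, circles are peaks of the named gene and squares are tested peaks of other genes. Tested peaks left of Ceacam12 lie 924 kb or farther away and fall outside the panel. Peaks of Ceacam12 and Ceacam10 lie at 1.02 or above and the squares at 0.88 or below. Both genes were selected for promoter peaks called higher in this contrast, so nothing is read from the gap.

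Likeness of pattern was measured as the root mean square difference, over 6 libraries, of log2 promoter CPM centred per gene. Closest to the Ceacam10 promoter among 13868 others were those of Ecscr at 0.20, Gm21954 at 0.21 and Card6 at 0.22. Closest to Ceacam12 were Cysltr2 at 0.21, Tnfrsf9 at 0.23 and Obox8 at 0.24. The Ceacam10 and Ceacam12 promoters differed by 0.25 and each was the fifth nearest to the other. These promoters were chosen for likeness to promoters already called higher in the same libraries, so their rise in aged was built in. Gm21954, Card6 and Obox8 were called higher, at log2 fold changes of 1.22, 1.13 and 2.09. Ecscr, Cysltr2 and Tnfrsf9 were not called, at 1.14, 1.21 and 1.82. Over all promoters 0.772% were called higher, and nothing is read from these calls.

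Other genes of the carcinoembryonic antigen family were compared, among them Ceacam3, Ceacam5 and the pregnancy-specific glycoproteins, which the placenta secretes. Of 19 such genes 11 were in the annotation, with 42 peaks within 50000 bp, of which 36 were tested. None of the 36 was called by edgeR, DESeq2 or limma-voom. At an unadjusted p below 0.05, edgeR and limma-voom each had 3 higher and 1 lower, and DESeq2 had 0 higher and 1 lower. Over all tested peaks edgeR had 5.38% higher and 3.45% lower at that level, DESeq2 3.34% and 1.96%, and limma-voom 5.36% and 3.56%. The shares called by edgeR were 1.07% higher and 0.528% lower, so nothing is read from these counts. Their log2 fold changes lay between -0.74 and 1.06 with a median of 0.11. Among sums within 50000 bp, Ceacam3 had the smallest p, with 2.11 ± 0.64 CPM in aged and 1.1 ± 0.70 CPM in young (SD, n = 3 each; log2 fold change 0.74, SE 0.35 and adjusted p = 0.552). The lone tested promoter of this list was that of Psg25, with a promoter CPM of 9.98 ± 1.94 in aged and 11.5 ± 1.15 in young (SD, n = 3 each), not called.

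Genes that act with CEACAM1 or resemble it were read at promoters. Of 26 signalling partners, kinases and phosphatases of its cytoplasmic tail and proteins that bind it, 17 promoters were tested and 0 were called by edgeR, DESeq2 or limma-voom. At an unadjusted p below 0.05, edgeR had 2 higher and 1 lower among them, DESeq2 1 and 1, and limma-voom 2 and 1. Their median log2 fold change was -0.04. The smallest p belonged to Calm3, a calmodulin gene, with a promoter CPM of 197 ± 16.3 in aged and 224 ± 21.2 in young, to Pxn, the focal adhesion adaptor paxillin, at 251 ± 21.3 in aged and 226 ± 8.57 in young, and to the Src family kinase Lyn, at 189 ± 15.8 in aged and 172 ± 10.3 in young (SD, n = 3 each). Among 34 epithelial adhesion genes, mostly of the immunoglobulin superfamily, 12 promoters were tested, 1 rose and 0 fell, where 0.772% of all promoters were called higher and 0.973% lower. At an unadjusted p below 0.05 edgeR had 1 higher and 3 lower, and DESeq2 and limma-voom 1 and 2 each. Over all promoters edgeR had 4.6% higher and 4.32% lower at that level, DESeq2 3.17% and 2.96%, and limma-voom 4.92% and 4.48%. The gene that rose was Cxadr, the coxsackievirus and adenovirus receptor of tight junctions, with a promoter CPM of 155 ± 7.21 in aged and 122 ± 16.5 in young (SD, n = 3 each; log2 fold change 0.31, SE 0.08 and adjusted p = 0.0392). The Cxadr sum within 50000 bp was not called by edgeR (0.16, SE 0.06 and adjusted p = 0.299), and 0 of the 24 tested sums of this list were called. Of 18 transcription factors described for CEACAM promoters or for gut epithelium, 15 promoters were tested and 0 were called, and by each of the 3 tools 0 had an unadjusted p below 0.05. Their median was 0.07, against -0.002 over all promoters.

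Markers of the cell types that the sorted cells could hold were summed over promoter peaks. The 12 leukocyte markers had a promoter peak at 1 gene, Cd2, and Ptprc, which encodes CD45, had no peak within 50000 bp. The leukocyte promoter sum was 2.22 to 3.63 CPM in aged and 2.38 to 3.82 CPM in young. Within 50000 bp 6 of the 12 markers had a peak. Their sums there were 17.4 to 20.7 CPM in aged and 16.4 to 17.8 CPM in young, with overlap. Epithelial markers, 7 of 8 with a promoter peak, summed to 226 to 253 CPM in aged and 233 to 271 CPM in young. At promoters the sums of 2 lists did not overlap between the ages. Over all tested single peaks 7.32% had aged above young without overlap and 6.54% aged below, so nothing is read from these 2 lists. Tuft cell markers, 3 of 4 with a promoter peak, summed to 25.4 to 27.6 CPM in aged and 19.3 to 22.8 CPM in young, and enteroendocrine markers, 4 of 4, to 8.75 to 12.1 CPM in aged and 12.4 to 15.1 CPM in young. Within 50000 bp the tuft sums were 61.7 to 68.1 CPM in aged and 53.5 to 58.4 CPM in young, again without overlap. The enteroendocrine sums overlapped there, at 63.4 to 73.0 CPM in aged and 68.2 to 70.3 CPM in young. No promoter of either list was called. Promoter sums of enterocyte, stem cell, goblet, Paneth, endothelial and fibroblast markers overlapped between the ages. The part of these cell types in the Ceacam values was not tested.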

How the data were processed

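Each of 6 ATAC-seq libraries was sequenced on 4 lanes that share 1 column of counts. The authors deposited unnormalised counts for 1 set of consensus peaks in all libraries and an annotation of each peak. The submitters' processing notes name Trim Galore 0.6.4, BWA 0.7.17-r1188, SAMtools 1.10, Picard 2.23.1, MACS2 2.2.7.1 and featureCounts 2.0.1, and the build GRCm38. Not given in the sources used here are the unit counted (read or fragment), pooling for peak calling, the treatment of multiply mapped reads and any shift for Tn5.

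From the deposited counts, edgeR 4.0.16 in R 4.3.3 was run on all peaks, on sums within 1000 bp of each annotated start site and on sums within 50000 bp. After filterByExpr and TMM scaling, features were tested with the robust quasi-likelihood test, with age as the only term. P-values were adjusted by Benjamini-Hochberg over all tested features, and an adjusted p below 0.05 was called. Each SE was derived from the fold change and its test statistic. CPM came from edgeR's cpm function. DESeq2 1.42.0 and limma-voom (limma 3.58.1) were alternatives, beside other scalings, filters, distances, a stricter threshold, thinning and leaving out each library. The fitting code was tested on simulated data. Promoters were aligned pairwise with Biopython 1.88.

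Replicate numbers occur in both ages. Deviations from the mean of the age correlated at 0.236, 0.182 and 0.123 between libraries numbered 1, 2 and 4, and at -0.194 to 0.0287 between different numbers. Deviations cancel out over the libraries of an age, so positive values between like numbers force those between unlike numbers to be negative on average. The ranges are thus not independent of each other. Because of the positive values between like numbers, the numbers were used as a block in an alternative fit. The main fits, with their SE and p-values, have age as the only term and leave this pairing out. What a number marks is not stated.

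The members, gene lists and tests were chosen with earlier results of these data known. All members are described. Of their peaks those named by rule are the one nearest the start site, the one with the highest mean CPM and every called peak, and further peaks were named after their values were seen. Each promoter that was called has the 3 most alike promoters, and each list its called promoters and up to 3 with the smallest p.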

Additional observations from a re-analysis of the deposited data

How the results depend on the processing

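All counts of called Ceacam features stayed within 1.5 times their main value except under thinning to the depth of young 4, which leaves fewer counts to test. There 2 Ceacam peaks were called higher, against 5 with all counts, and 1 promoter, against 2. Leaving out each library in turn gave 4 to 5 higher peaks, 2 higher promoters and 2 higher sums within 50000 bp, and 0 lower in every case. With the replicate number as a block there were 6 higher peaks, 2 promoters and 3 sums, the added ones being the Ceacam10 peak 776 bp downstream and the Ceacam19 sum. The block changed no other call of a named Ceacam feature. Over all peaks it called 2578 higher and 1420 lower, against 1393 and 684. Other settings moved these to 503 to 924 higher (thinning, DESeq2, a mean of at least 10 counts, an adjusted p below 0.01, without aged 4 or young 2) and to 274 to 439 lower (thinning, the same count minimum and the same threshold). Over promoters the block called 212 higher and 251 lower, against 107 and 135, and over sums within 50000 bp 752 and 513, against 289 and 211. Thinning, the stricter threshold and leaving out aged 4 or young 2 gave 56 to 66 higher promoters and 151 to 178 higher sums, and, where these moved, 70 lower promoters and 117 to 134 lower sums. No named Ceacam value reversed a call. Among the features named by rule, 6 calls were lost over all alternatives and 1, that of the Ceacam19 sum, was gained. The Ceacam10 peak at 776 bp is not among them. The 6 also leave out the Ceacam12 peak 18050 bp downstream under a mean of at least 10 counts and under thinning. It failed the filter in both and was not tested. The lost ones include the Ceacam12 promoter peak under thinning (log2 fold change 1.04, adjusted p = 0.164) and the upstream Ceacam12 peak (0.84, adjusted p = 0.237). The Ceacam10 promoter lay between 1.24 and 1.63 and was called under all alternatives run. Depth limited the small peaks most, since 0 to 30 counts in young 4 stood behind each peak of Ceacam12 and behind the intron peaks of Ceacam10. The shared sequence of the Ceacam10 and Ceacam1 promoters is a limit that no alternative here could address.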

Other observations

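Between Ceacam19 and Ceacam20, peaks of other genes were called higher in aged while the Ceacam peaks beside them were not. These were picked after their values were seen. A peak in Igsf23, an immunoglobulin superfamily gene, at chr7:19939666-19940197 had 7.58, 7.48 and 7.21 CPM in aged 1, 2 and 4, against 4.94, 4.46 and 3.34 CPM in young 1, 2 and 4 (log2 fold change 0.74, SE 0.17, adjusted p = 0.0148 by edgeR). A peak in Gm16184 at chr7:19914125-19914621 had 8.69, 5.68 and 8.23 CPM in aged, against 4.90, 4.46 and 4.46 CPM in young (0.69, SE 0.18, adjusted p = 0.0451 by edgeR). All 3 aged libraries lay above all 3 young ones at both peaks.

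The nearest peak left of Ceacam12, annotated to Gm5155, was below the filter on low counts and was not tested. It held 7, 18 and 12 counts in aged 1, 2 and 4, against 2, 4 and 1 counts in young 1, 2 and 4.

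With sums scaled to all promoter counts, young 4 was the highest young library at all 5 Ceacam promoters. On the scale of single peaks young 1 was the highest at Ceacam20, at 28.1 CPM against 27.9 CPM in young 4. Young 4 was also the shallowest library, and the part of depth in these values was not tested beyond the fits without young 4 and the thinned fit.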
